A study of Mus musculus with 10 samples.

Results

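The genes described here make, bind and break down hyaluronan, a long sugar polymer of the extracellular matrix. They were chosen by name: every probe set whose platform annotation gives Has1, Has2, Has3, Vcan, Cd44, Hyal1, Hyal2 or Tnfaip6 as its 1 gene symbol, current or former. This gave 18 of the 45101 probe sets in the table, for 7 of the 8 genes. Vcan had 8 probe sets, Cd44 had 4, Has2 had 2, and Has1, Has3, Tnfaip6 and Hyal2 had 1 each. Hyal1 had none of its own, because the 2 probe sets that name it also name Naa80, and it is left out.

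RNA came from the secondary palate of C57B6 mouse embryos at E14.5, when the palatal shelves fuse, and was hybridised to Affymetrix expression arrays, 1 array per sample. The mutant group had 5 arrays with the genotype Tgfbr2fl/fl;Wnt1-Cre, in which Wnt1-Cre deletes the floxed Tgfbr2 gene, which encodes a TGF-beta receptor, in the neural crest and its descendants; palate epithelium, skeletal muscle, endothelium and blood cells are not of neural crest origin and keep the gene, whereas pericytes and smooth muscle of facial vessels do come from it. The control group had 5 arrays with the genotype Tgfbr2fl/fl and no Cre in the label (the titles call them wildtype), so both groups carry the floxed alleles. The labels give sex as not determined, and they do not state which arrays hold different embryos, so a p-value here reflects array-to-array spread alone. The Y-linked gene Eif2s3y read 9.2, 9.0, 9.3, 9.1 and 5.1 in mutants and 9.1, 3.2, 3.3, 9.0 and 3.2 in controls. The control arrays thus came from tissue of different sex, and the groups were unequal in this signal, with 4 of 5 mutants and 2 of 5 controls near 9. Mutant replicate 5, at 5.1, lay between the arrays near 9 and the low controls, so its sex is not clear. The title of the series presents these mice as a cleft palate model; arrays of the earlier stage named in its design were not analysed here.

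Hyaluronan is made at the plasma membrane by the synthases Has1, Has2 and Has3 from UDP sugars and is extruded into the matrix, where it holds water and swells the tissue. Vcan encodes versican, a large proteoglycan that binds hyaluronan through its globular end, Tnfaip6 encodes a secreted protein that moves protein chains onto hyaluronan, and Cd44 encodes a cell surface receptor for it. Hyal2 encodes a hyaluronidase that cuts the long polymer into fragments. In the palate, hyaluronan is abundant in the mesenchyme while the shelves rise from beside the tongue to above it, and Has2 is the main synthase of embryonic mesenchyme.

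The letters upstream of 3 genes are shown so that the reader can see what stretch lies before their start: Vcan, which has the most probe sets, Tnfaip6, and Adamts1, a versican protease whose RNA was higher in the mutant. Each is the 250 bases before the RefSeq start (GRCm38.p6), on the gene's own strand. Capitals mark matches, on either strand, to any of 4 motifs. They are the SMAD box CAGAC and the SMAD palindrome GTCTAGAC, neither of which contains the other, the AP-1 site TGAGTCA, and the TATA box TATAAA.
Vcan, chr13:89742513-89742762, minus strand: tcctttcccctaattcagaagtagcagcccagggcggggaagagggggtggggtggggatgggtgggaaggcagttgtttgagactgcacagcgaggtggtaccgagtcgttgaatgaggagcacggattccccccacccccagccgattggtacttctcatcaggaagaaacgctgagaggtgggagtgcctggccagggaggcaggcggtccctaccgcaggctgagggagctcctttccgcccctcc
Tnfaip6, chr2:52037863-52038112, plus strand: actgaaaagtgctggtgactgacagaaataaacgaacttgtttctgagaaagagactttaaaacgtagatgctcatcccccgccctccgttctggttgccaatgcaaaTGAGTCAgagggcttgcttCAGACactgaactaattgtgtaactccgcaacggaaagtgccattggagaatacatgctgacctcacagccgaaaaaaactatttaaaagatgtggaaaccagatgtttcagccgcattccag
Adamts1, chr16:85803114-85803363, minus strand: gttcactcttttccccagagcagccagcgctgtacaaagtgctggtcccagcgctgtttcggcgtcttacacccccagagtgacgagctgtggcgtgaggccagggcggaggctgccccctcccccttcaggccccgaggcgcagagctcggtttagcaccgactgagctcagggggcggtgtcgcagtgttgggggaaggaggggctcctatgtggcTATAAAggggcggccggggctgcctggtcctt
The window of Vcan held none of the 4 motifs, that of Tnfaip6 held 1 CAGAC and 1 TGAGTCA, and that of Adamts1 held 1 TATAAA. Among 32851 RefSeq windows of the same length, 42.2% held CAGAC, 4.46% TGAGTCA, 12.4% TATAAA and 0.167% GTCTAGAC. Of the other members in the table, Has1 had 2 matches to CAGAC, Hyal1 had 1, and Cd44 and Hyal2 had none. The RefSeq windows used included none for Has2, Has3 or Adamts5, so these genes were not searched for the motifs. A match is a string of letters and not a measured binding site.

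Values are log2 signals as deposited, to 1 decimal. They can be compared between arrays for 1 probe set, but not between probe sets. A guide to low signal was taken from 44 probe sets of olfactory receptor genes: 95% of their means lay at or under 5.77. Of the 18 member probe sets, 13 had a mean above this level, while 4 of the 8 for Vcan and 1 of the 4 for Cd44 did not. Control replicate 1 was the array least like the rest: its correlation with them over all probe sets was 0.978 to 0.982, against 0.990 to 0.996 among the other 9, and results that rest on it are given with and without it. The 3 probe sets of Tgfbr2 itself differed by -0.08, -0.04 and 0.08 between the groups and do not check the deletion, because no source used here places them inside or outside the deleted exons. All 8 markers of palate mesenchyme, among them Osr2, Shox2 and Tbx22, were above the low-signal guide.

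No member passed the test between mutant and control palate. Limma, fitted over 45037 probe sets, called 0 of the 18 at a Benjamini-Hochberg adjusted p under 0.05, where it called 3.26% of all probe sets (1.07% higher and 2.18% lower in the mutant). The adjusted p of the members ran from 0.0710 to 1. At an unadjusted p under 0.05 there were 9 of 18 (50%), against 19.6% of all probe sets, and 7 of the 13 above the low-signal guide (53.8%), against 24.8% of all probe sets above it; the members share genes and arrays, so these shares are descriptions. No 95% confidence interval of the 18 reached a 2-fold change in either direction, and 4 reached 1.5-fold, those of Has3 and 3 probe sets of Vcan, 1 of them dim. The median size of the 18 log2 differences was 0.22. On simulated arrays with 200 changed probe sets, the same fit recovered 2 of 50 changes of 1.2-fold and 30 of 50 of 1.5-fold. It recovered 43 of 50 of 2-fold and 49 of 50 of 3-fold. The adjusted threshold depends on how many probe sets differ, and 1467 were called in the real arrays. These shares therefore do not give the power of the real fit. The 0 calls do not show that small differences are absent, because the confidence intervals include them.

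**Figure D1:**
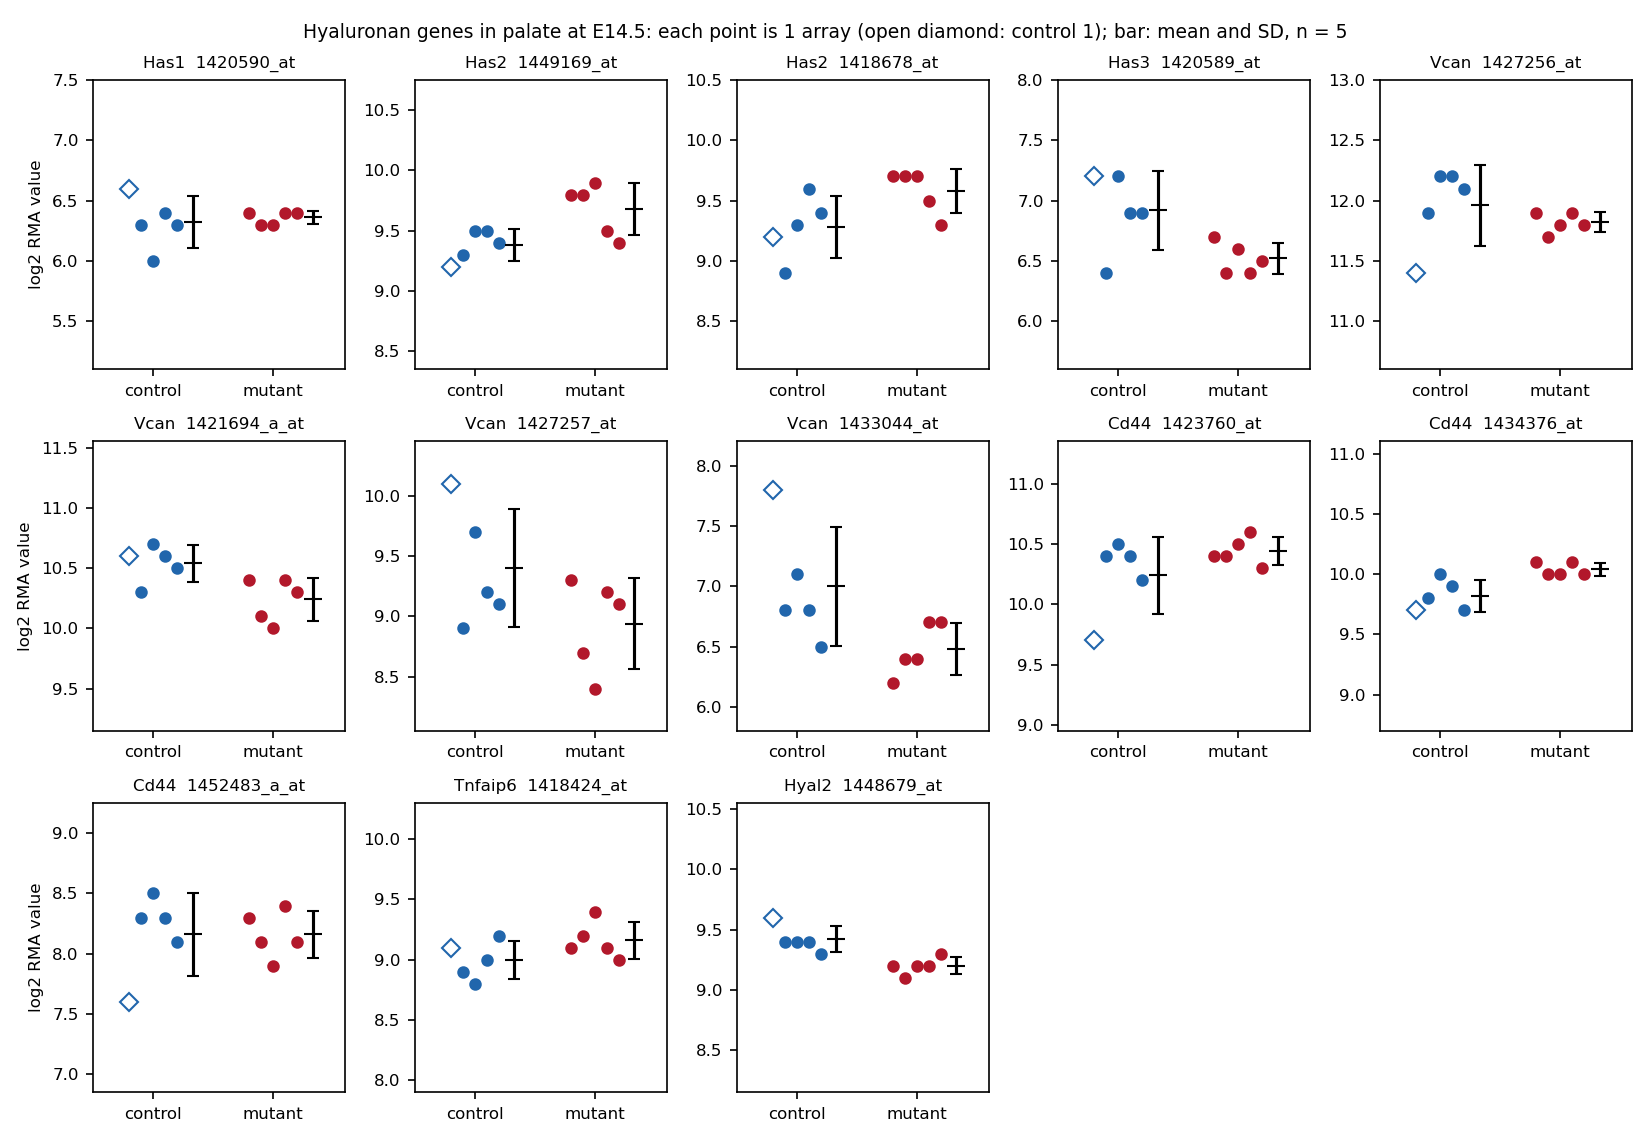
Log2 signal of the 13 member probe sets above the low-signal guide, 1 point per array, with control arrays on the left and mutant arrays on the right of each panel; every panel spans the same number of log2 units. Mutant and control points overlap in all 13 panels, and control replicate 1 (open diamond) is the lowest control for the brightest probe sets of Vcan and Cd44 and the highest for 1427257_at and 1433044_at of Vcan.

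Has2, the main mesenchymal synthase, had a higher mean in the mutant on both of its probe sets, by the same amount, without passing the test. On probe set 1449169_at, mutant replicates 1 to 5 read 9.8, 9.8, 9.9, 9.5 and 9.4, and control replicates 1 to 5 read 9.2, 9.3, 9.5, 9.5 and 9.4. Mutant replicates 1 to 3 lay above all controls, and mutant replicates 4 and 5 lay within the control range. The means were 9.68 ± 0.22 and 9.38 ± 0.13 (SD, n = 5 each), a log2 difference of 0.30 (SE 0.11, 95% interval 0.07 to 0.53, limma adjusted p = 0.146). The second probe set, 1418678_at, read 9.7, 9.7, 9.7, 9.5 and 9.3 in mutants and 9.2, 8.9, 9.3, 9.6 and 9.4 in controls, again 0.30 apart (SE 0.13, adjusted p = 0.223). The same 3 mutant arrays were highest on both. Left out in turn, single arrays moved the difference between 0.25 and 0.37 on the first probe set and between 0.21 and 0.38 on the second, and none brought the adjusted p under 0.05. With the mean of skeletal muscle markers as a covariate the differences were 0.10 (SE 0.16) and 0.19 (SE 0.21). With Eif2s3y as a covariate they were 0.26 (SE 0.13) and 0.17 (SE 0.13). Both covariates are unequal between the groups and the errors grew, so how far the Has2 difference depends on them cannot be told. Of 8 palate mesenchyme markers 1, Tbx22, was called higher in mutants (0.62, limma adjusted p = 0.0346). Msx1 had the widest difference, -0.84, without a call (adjusted p = 0.208). The median log2 difference of the 8 was 0.15. Their mean deviation per array ran from -0.08 to 0.13 in mutants and from -0.26 to 0.12 in controls. The part of these markers in the Has2 values was not tested.

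Has3, a synthase best known in epithelia, had a lower mean in the mutant and was not called. Mutant replicates 1 to 5 read 6.7, 6.4, 6.6, 6.4 and 6.5, and controls read 7.2, 6.4, 7.2, 6.9 and 6.9. The other 4 controls lay above every mutant array, and control replicate 2, at 6.4, was level with the lowest mutants. The difference was -0.40 (SE 0.14, 95% interval -0.71 to -0.09, limma adjusted p = 0.144). Without control replicate 2 it was -0.53 with an adjusted p of 0.0210, so that 1 array decides whether Has3 is called. None of 10 epithelial markers was called, and their median log2 difference was 0.16. Their mean deviation per array ran from -0.13 to 0.21 in mutants and from -0.29 to 0.39 in controls. The 0.39 was control replicate 1, and the other 4 controls lay between -0.29 and 0.009. The part of these markers in the Has3 values was not tested. Has1 showed the least difference of the synthases, with means of 6.36 ± 0.05 (mutant) and 6.32 ± 0.22 (control) and a log2 difference of 0.04 (interval -0.17 to 0.25, limma adjusted p = 0.850).

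For versican, the 4 probe sets above the low-signal guide all gave lower means in the mutant, and none was called. The brightest, 1427256_at, read 11.9, 11.7, 11.8, 11.9 and 11.8 in mutants and 11.4, 11.9, 12.2, 12.2 and 12.1 in controls. Mutants were tightly grouped at 11.82 ± 0.08, whereas controls spread over 11.96 ± 0.34, with control replicate 1 below every mutant and 3 controls above every mutant. Its log2 difference was -0.14 (SE 0.14, adjusted p = 0.612). On 1421694_a_at the mutants read 10.4, 10.1, 10, 10.4 and 10.3 and the controls 10.6, 10.3, 10.7, 10.6 and 10.5. Here 4 of 5 controls lay above every mutant, and the difference was -0.30 (SE 0.10, 95% interval -0.52 to -0.08, limma adjusted p = 0.127). Probe set 1427257_at ran from 8.4 to 9.3 in mutants and from 8.9 to 10.1 in controls (-0.46, SE 0.24, adjusted p = 0.313). The fourth, 1433044_at, ran from 6.2 to 6.7 in mutants and from 6.5 to 7.8 in controls (-0.52, SE 0.21, adjusted p = 0.197). With the muscle mean as a covariate the 4 Vcan differences were 0.017 (SE 0.23), -0.12 (SE 0.15), -0.21 (SE 0.39) and -0.58 (SE 0.35) in the same order. The first changed sign, with an error larger than its value.

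Control replicate 1 departed from the other arrays in different directions on these probe sets. There the brightest was 0.70 below the mean of the other 4 controls, while 1427257_at and 1433044_at were 0.88 and 1.00 above it and 1421694_a_at 0.08 above it. The brightest minus 1427257_at was 1.3 in that array and 2.5 to 3.4 in the other 9, and the brightest minus 1433044_at was 3.6 against 5.1 to 5.7. The brightest minus 1421694_a_at was 0.8 in that array and 1.5 to 1.8 in the other 9. Without control replicate 1 the 4 log2 differences moved from a span of -0.52 to -0.14 to a span of -0.32 to -0.28, so all 4 were lower by nearly the same amount, with adjusted p from 0.0634 (the brightest) to 0.450 (1427257_at), and none was called. No source used here says which transcripts or exons each probe set reads.

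**Figure D2:**
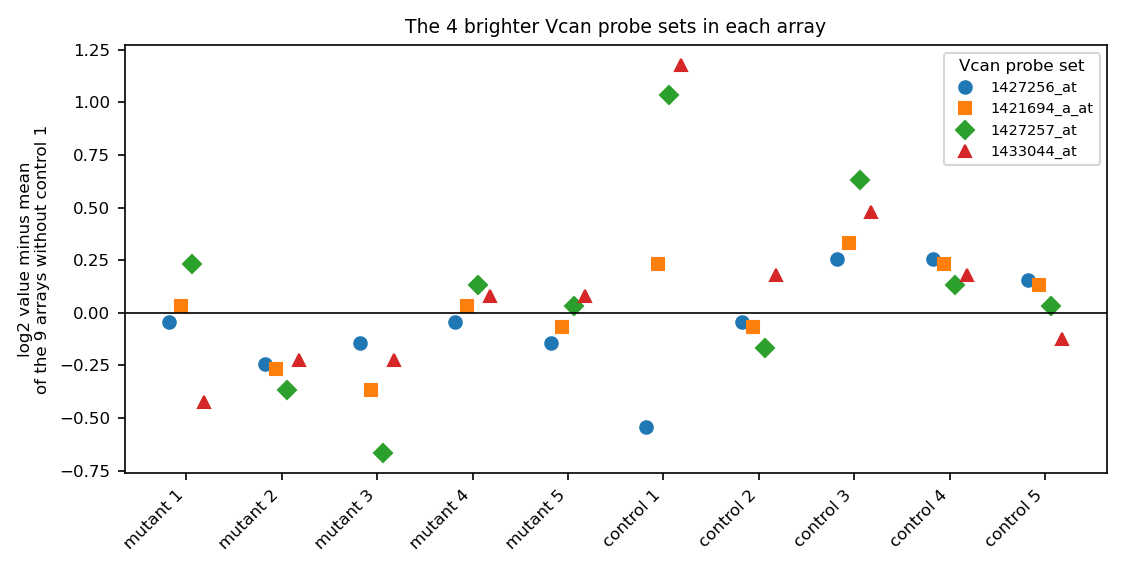
Signal of the 4 brighter Vcan probe sets in each array, as the log2 value minus that probe set's mean over the 9 arrays other than control replicate 1. In control replicate 1 the symbols spread widely and on both sides of 0, while in the other 9 arrays they lie closer together.

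The 4 dim Vcan probe sets, whose means did not exceed the low-signal guide, had log2 differences of -0.24, -0.08, 0.28 and -0.16. The 0.28 belonged to 1447586_at, which read 3.8, 3.9, 4.2, 3.9 and 3.9 in mutants and 3.7, 3.7, 3.6, 3.7 and 3.6 in controls. It was the 1 member probe set of 18 whose groups did not overlap, where 4.87% of all probe sets did not overlap, and it had the smallest adjusted p of the members (0.0710). Its direction was opposite to that of the brighter Vcan probe sets, and the step of 0.1 in the deposited values is the whole gap between its groups. Probe sets of 1 gene were also compared with each other within each array, in 35 pairs over Vcan, Cd44 and Has2, of which 25 included a probe set not above the guide. None passed after adjustment (exact two-sided permutation test, smallest adjusted p = 0.139), but 5 against 5 arrays allow no p under 0.00794, so at least 6 pairs would have had to reach it, and 2 did. This count of 0 therefore says little about whether probe sets differ. An unadjusted p under 0.05 was found for 4 pairs. Of those 4 pairs, 3 contained 1447586_at. The remaining pair was 1423760_at and 1452483_a_at of Cd44.

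Cd44, the receptor, had a higher mutant mean on 3 of its 4 probe sets and the same mean on the other, and none was called. The clearest was 1434376_at, at 10.1, 10, 10, 10.1 and 10 in mutants and 9.7, 9.8, 10, 9.9 and 9.7 in controls, so that 4 of 5 controls lay below every mutant and control replicate 3 was level with the lowest. The difference was 0.22 (SE 0.07, 95% interval 0.06 to 0.38, limma adjusted p = 0.118). On the brightest, 1423760_at, mutants read 10.4, 10.4, 10.5, 10.6 and 10.3 and controls 9.7, 10.4, 10.5, 10.4 and 10.2, a difference of 0.20 (SE 0.14, adjusted p = 0.449) that fell to 0.07 without control replicate 1. Probe set 1452483_a_at had the same mean in both groups, 8.16, with control replicate 1 again lowest at 7.6; without that array its difference was -0.14 (adjusted p = 0.493). The fourth, 1443265_at, lay between 3.0 and 3.3 in all arrays.

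Cd44 is also known from epithelium, leukocytes and macrophages. None of 9 macrophage markers was called, and their mean deviation ran from -0.06 to 0.16 in mutant and from -0.26 to 0.25 in control arrays; their part in the Cd44 values was not tested. In RNA from whole tissue, fewer cells of a type and less RNA per cell cannot be told apart.

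Tnfaip6 read 9.1, 9.2, 9.4, 9.1 and 9.0 in mutants and 9.1, 8.9, 8.8, 9.0 and 9.2 in controls. The groups overlapped, with only mutant replicate 3 above all controls, and the difference was 0.16 (SE 0.09, 95% interval -0.05 to 0.37, limma adjusted p = 0.377). Without that array it was 0.10, and single arrays left out in turn gave 0.10 to 0.21. Hyal2, the 1 hyaluronidase with a probe set of its own among the members, read 9.2, 9.1, 9.2, 9.2 and 9.3 in mutants and 9.6, 9.4, 9.4, 9.4 and 9.3 in controls. Its groups met at 9.3, held by mutant replicate 5 and control replicate 5, and the difference was -0.22 (SE 0.07, 95% interval -0.37 to -0.07, limma adjusted p = 0.102). Leaving out single arrays moved it between -0.25 and -0.18, and no alternative called it.

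**Figure D3:**
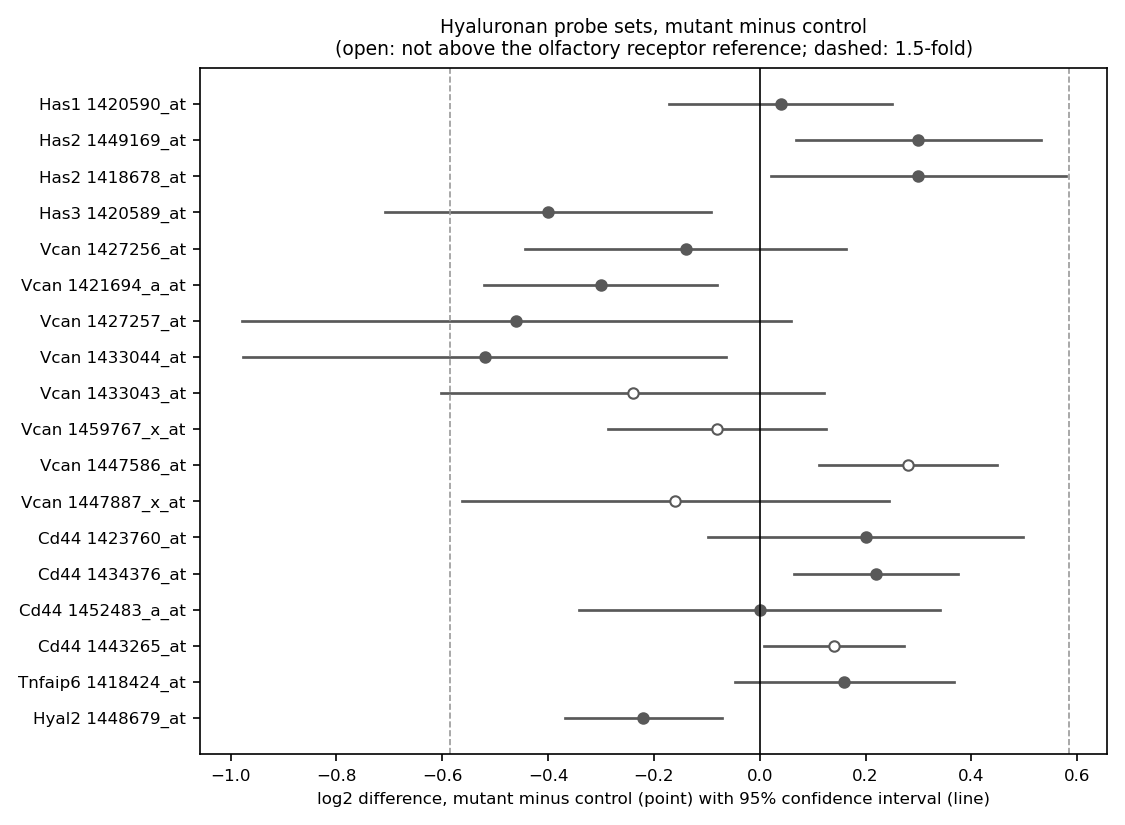
Log2 difference of mutant minus control with its 95% confidence interval for each of the 18 member probe sets; open symbols mark means not above the low-signal guide and dashed lines mark 1.5-fold. Both Has2 probe sets sit at 0.30, the 4 brighter Vcan probe sets lie between -0.52 and -0.14, and none of the 18 was called.

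The genes around these members were taken from 7 lists: supply of the UDP sugars, other hyaluronan binding proteins, the heavy chains that Tnfaip6 transfers, other breakdown enzymes, proteases that cut versican, matrix partners of versican, and receptors of hyaluronan fragments. Of 53 listed genes, 51 had a probe set of their own, and each was read at its brightest. Limma called 2 higher and 1 lower (5.88%), where 4.58% of the brightest probe sets of all genes were called (1.48% higher, 3.09% lower), so the share was near the background. The median log2 difference of the 51 was 0.02, and the median over the brightest probe sets of all genes was 0. Over all 106 probe sets of these genes, 3 were higher and 7 lower (9.43%), where 3.26% of all probe sets were called (1.07% higher, 2.18% lower). Of these 10 called probe sets, 4 belong to Hmmr and 2 to Adamts5, and probe sets of 1 gene are not independent. Of 12 skeletal muscle markers 5 were called lower in mutants, with mean deviations of -1.83 to 0.68 in mutant and 0.45 to 1.88 in control arrays. With this muscle mean as a covariate, limma called 1 probe set in the whole table and none of these genes, while the differences of the 3 called genes stayed of similar size with larger errors. They were 0.89 for Adamts5 (SE 0.13, adjusted p = 0.156), 0.60 for Adamts1 (SE 0.23, adjusted p = 0.464) and -0.54 for Hmmr (SE 0.14, adjusted p = 0.316). Of 6 smooth muscle and pericyte markers 1, Myh11, was called lower (-0.52), and its mean was not above the low-signal guide. Acta2 (-0.72), Rgs5 (-0.46) and Cnn1 (-0.06) were lower and Pdgfrb (0.34) and Cspg4 (0.06) higher, without a call. The mean deviation of that list ran from -0.22 to -0.0033 in mutant and from 0.013 to 0.16 in control arrays, without overlap. The part of this list in the values of the 3 called genes was not tested.

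The 2 that rose encode secreted proteases that cut versican. Adamts5 on 1422561_at read 8.4, 8.1, 8.5, 8.4 and 8.3 in mutants and 7.6, 7.5, 7.6, 7.4 and 7.6 in controls. The groups did not overlap, and every mutant array lay at least 0.5 above every control. Adamts5 was 1.74-fold higher, a log2 difference of 0.80 (SE 0.08, 95% interval 0.62 to 0.98, limma adjusted p = 0.00218). A second Adamts5 probe set, 1456404_at, rose by 0.70 (SE 0.07, adjusted p = 0.00218), at 7.4 to 7.6 in mutants against 6.6 to 6.9 in controls, and the other 2 differed by 0.36 and 0.16 and were not called. Adamts5 kept its call without each single array (0.76 to 0.86).

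Adamts1 read 9.8, 9.8, 10, 9.8 and 10 in mutants and 8.7, 9.4, 9.5, 9.4 and 9.2 in controls on its 1 probe set. The groups did not overlap, and control replicate 1 was the lowest array. Adamts1 was 1.56-fold higher (log2 difference 0.64, SE 0.14, 95% interval 0.34 to 0.94, limma adjusted p = 0.0307). Without control replicate 1 the difference was 0.51 (adjusted p = 0.00856). The call was lost without any 1 of the 5 mutant arrays and without control replicate 5 (adjusted p 0.0540 to 0.0844, differences of 0.61 to 0.66). Adamts1 and Adamts5 are next to each other among the protein-coding genes of chromosome 16 in RefSeq.

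The other 4 proteases of the list were not called: Adamts4 (0.10), Adamts9 (0.08), Adamts15 (-0.04) and Adamts20. Adamts20, which has a role in pigment cell spread and in palate closure in mice, read 8.5, 8.7, 8.7, 8.7 and 8.8 in mutants and 8.7, 9.1, 9.6, 9.4 and 9.5 in controls, a difference of -0.58 (SE 0.15, 95% interval -0.91 to -0.25, limma adjusted p = 0.0618). Control replicate 1 was again the array that overlapped the mutants, and without it Adamts20 differed by -0.72 (adjusted p = 0.00560). With all 10 arrays kept, Adamts20 was also called with 1 row per gene (adjusted p = 0.0346 at the brightest and 0.0338 for the mean of probe sets), with the brighter 60% of probe sets (0.0489), with median centring (0.0429) and with array weights (0.00287). Array weights are not separate from control replicate 1, which had the lowest weight (0.195, with 0.814 the next lowest). The call of Adamts20 thus turns on the genes tested and the scaling as well as on that array.

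**Figure D4:**
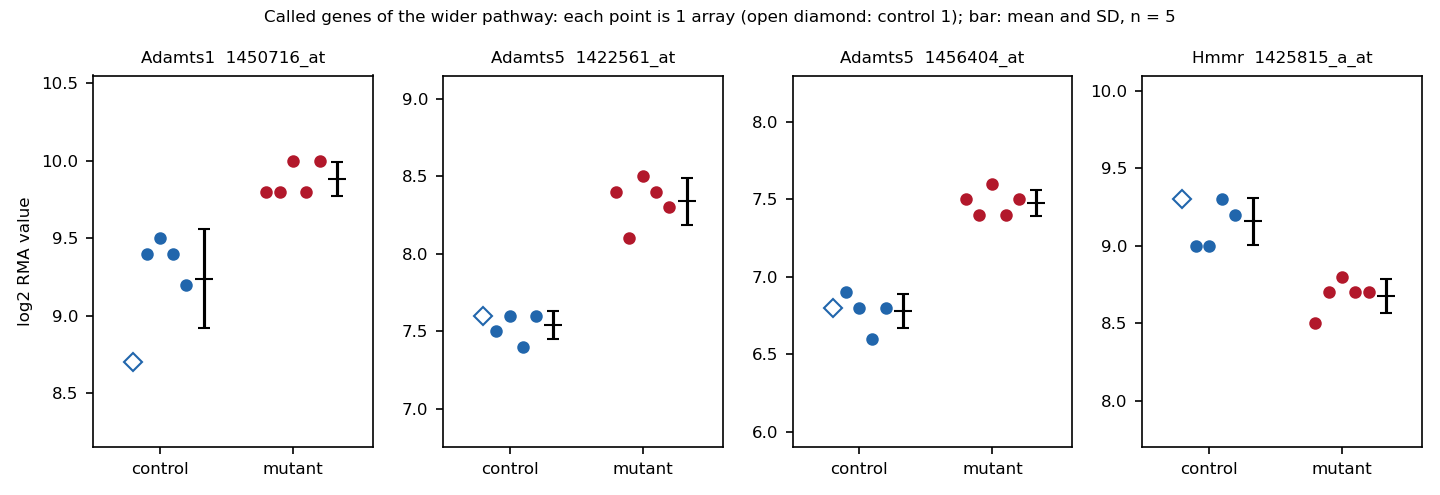
Log2 signal in each array for the called genes of the wider pathway, with 2 called probe sets of Adamts5; each panel spans the same number of log2 units, and bars give mean and SD of 5 arrays. In all 4 panels the mutant points are separate from the control points, above them for Adamts1 and Adamts5 and below them for Hmmr.

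Hmmr, which encodes a hyaluronan receptor that is also a protein of the mitotic spindle, was the 1 that fell. It read 8.5, 8.7, 8.8, 8.7 and 8.7 in mutants and 9.3, 9.0, 9.0, 9.3 and 9.2 in controls on 1425815_a_at, with no overlap (log2 difference -0.48, SE 0.08, 95% interval -0.67 to -0.29, limma adjusted p = 0.0156). All 5 of its probe sets were lower, by 0.40 to 0.52, and 4 were called. Left out in turn, no single array ended the call (differences of -0.52 to -0.44). The muscle covariate (limma adjusted p = 0.316) and a block for the replicate number (adjusted p = 0.0901) did.

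Other hyaluronan binding genes were not called. Lyve1, a hyaluronan receptor of lymphatic vessels and some macrophages, had the widest difference, with means of 6.38 ± 0.32 (mutant) and 7.26 ± 0.48 (control) and a log2 difference of -0.88 (SE 0.22, limma adjusted p = 0.0548), and its other probe set differed by -0.74. The call of Lyve1 turned on the setting: with all 10 arrays its adjusted p was 0.0304 with 1 row per gene at the brightest, 0.0399 for the mean of probe sets, 0.0454 with the brighter 60%, 0.0480 with median centring and 0.0297 with array weights. It was 0.0381 without control replicate 1, the array with the lowest weight (0.195), and 0.0401 without control replicate 4. Of 8 endothelial markers 1, Cldn5, was lower, and the mean deviation of that list ran from -0.17 to 0.08 in mutants and from -0.30 to 0.18 in controls. The -0.30 was control replicate 1, and the other 4 controls lay between 0.05 and 0.18; the part of this list in the Lyve1 values was not tested. Ptx3, which binds the Tnfaip6 and heavy chain complex, differed by -0.32 (adjusted p = 0.162), Hapln1, a link protein that ties versican to hyaluronan, by 0.04, and Acan, the cartilage proteoglycan, by 0.04.

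Supply and breakdown genes showed small differences. Of 8 genes for UDP sugar supply none was called at its brightest probe set, with differences of -0.26 to 0.20. Ugdh, which makes UDP-glucuronate, differed by 0.02 (interval -0.14 to 0.18). Gnpnat1 was lower on all 4 of its probe sets, with -0.26 on the brightest (limma adjusted p = 0.367). It was called for the mean of its probe sets (-0.255, limma adjusted p = 0.0392). Ugp2, which makes UDP-glucose, was lower on all 5 of its probe sets and called on 1 of them, 1426460_a_at (-0.36, adjusted p = 0.0356), while its brightest differed by -0.22 (adjusted p = 0.102). Of 9 other breakdown genes none was called (-0.12 to 0.10); among them Cemip2, a cell surface hyaluronidase, differed by -0.12 and Hexa, a lysosomal hexosaminidase, by 0.08. Of 5 heavy chain genes and the light chain gene Ambp none was called at its brightest probe set. Only Itih5 was above the low-signal guide, at -0.58 (adjusted p = 0.146). Its other probe sets, neither above the guide, both differed by -0.52, and 1 of them, 1441946_at, was called. Itih5 was also called for the mean of its probe sets (-0.54, limma adjusted p = 0.0273) and with array weights (-0.71, adjusted p = 0.0470). Of 5 versican partners none was called at its brightest probe set, and Fbln1, fibulin 1, a cofactor of versican cleavage, was called on 1 of 3 (1422540_at, -0.36, adjusted p = 0.0489), with -0.24 on the brightest and 0.12 on the other. Tnc, another partner, differed by -0.08 at its brightest, where control replicate 1 was the lowest array at 10.5. Without that array it differed by -0.27 and was called, at a limma adjusted p that rounds to 0.05. Its other probe set differed by 0.48 with all arrays and was not called. Tlr2 and Tlr4 differed by 0.02 and -0.14.

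**Figure D5:**
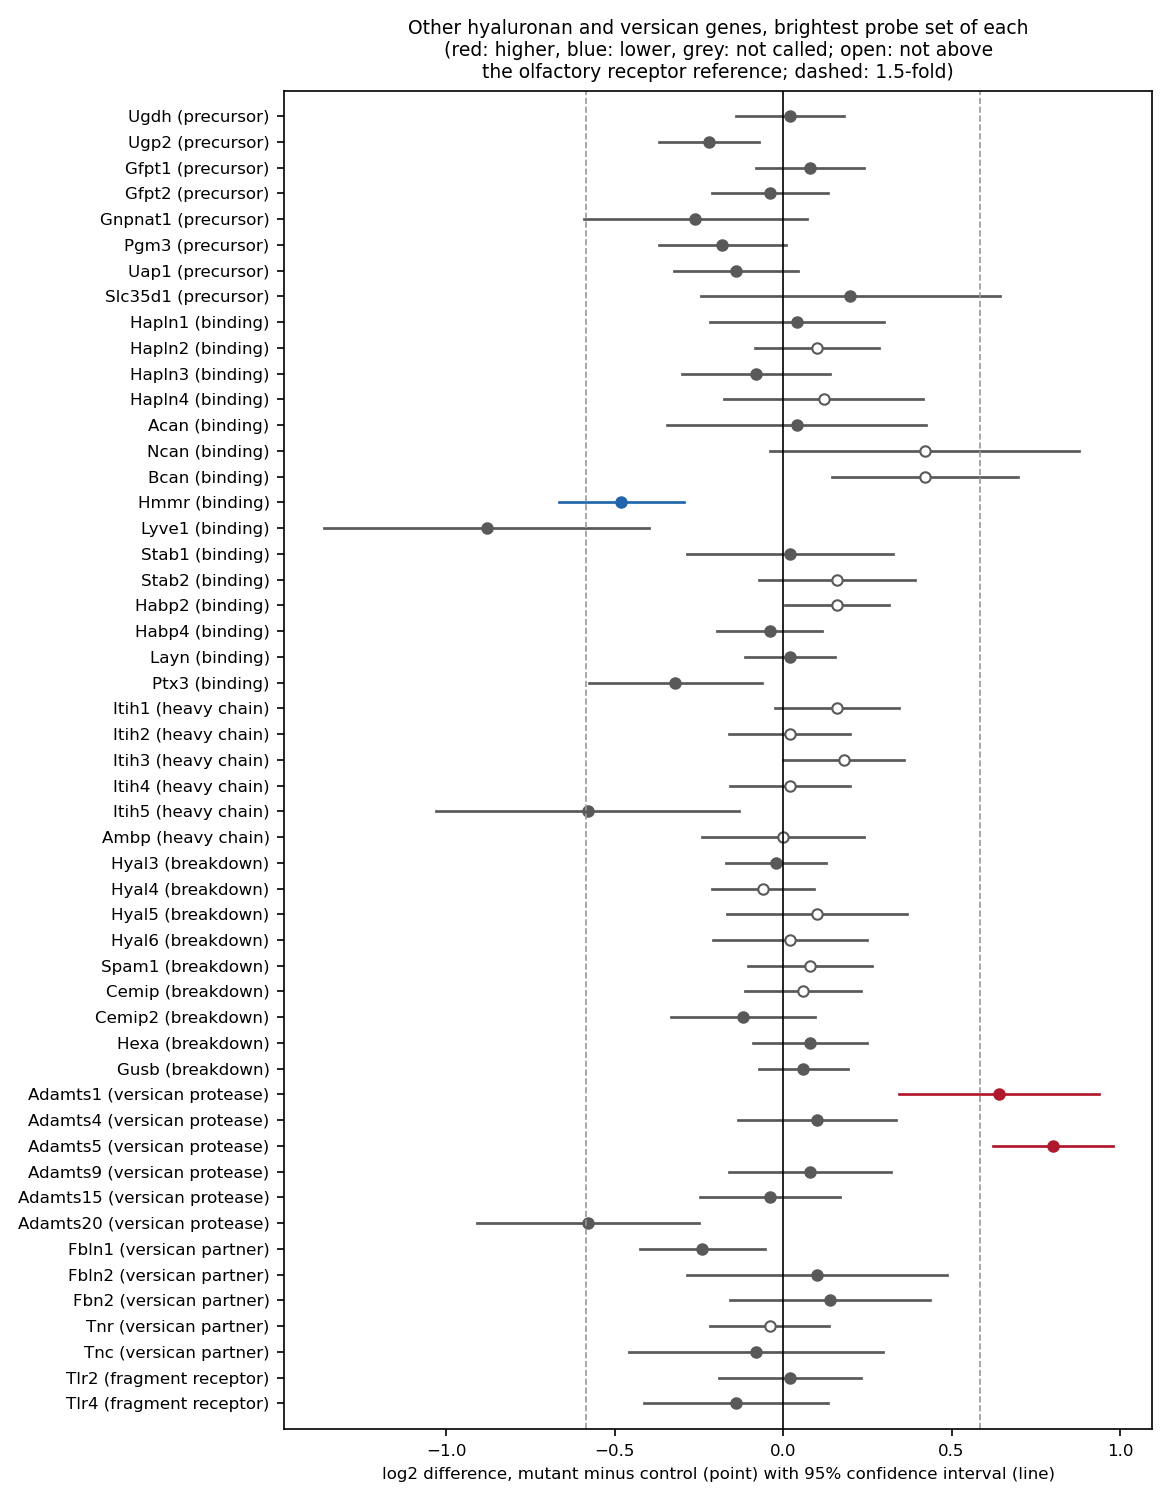
Log2 difference of mutant minus control with its 95% confidence interval for the brightest probe set of each of 51 other genes of hyaluronan and versican, grouped by role. Adamts1 and Adamts5 are the 2 that were higher and Hmmr the 1 that was lower; most others lie close to 0.

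Genes were also ranked by how closely their pattern over the 10 arrays followed that of Has2 and of Vcan, as the mean absolute difference between profiles each centred on its own mean, over 11166 other genes with at least median signal. Closest to Has2 were Ikzf4 (0.06), Plpp3 (0.07), Ebf4 (0.08), Tcf4 (0.09) and Idua (0.09), where Has2 itself deviated by 0.18 on average. Idua encodes a lysosomal enzyme that degrades other glycosaminoglycans, and none of the 5 was called. Closest to the brightest Vcan probe set were Emilin1 (0.05), Irs1 (0.06), Enc1 (0.06), Stox2 (0.07) and Il17rd (0.07). Emilin1 encodes a glycoprotein of elastic fibres. Without control replicate 1, Emilin1 ranked 7, Irs1 10, Enc1 9, Stox2 63 and Il17rd 4 for Vcan. For Has2, Ikzf4, Plpp3 and Idua stayed at 1, 2 and 5, while Ebf4 went from 3 to 7 and Tcf4 from 4 to 34.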

How the data were processed

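RNA of 10 palate samples was measured on Affymetrix arrays. The deposited values are log2 values from RMA, per the submitters' processing notes; RMA quantile-normalizes the arrays together. No source used here gives its version, filters or batches. Probe sets were named by the platform annotation (1 symbol for 34945), updated through the Entrez ID in RefSeq (GRCm38.p6), which held 34741 of them; 64 Affymetrix control probe sets were left out. Differences, mutant minus control, were fitted by limma 3.58.1 under R 4.3.3 (eBayes, two-sided, no filter, no covariate) over 45037 probe sets with Benjamini-Hochberg adjustment; a probe set was called at an adjusted p under 0.05. The fit was tested on simulated arrays. Errors are the SD over 5 arrays or the SE of the fitted difference. Arrays have no read depth; their number limits the precision. The rule for named genes took all member probe sets, every other listed gene called at its brightest probe set, Tgfbr2, and the 5 genes most like Has2 and Vcan; other genes were named after their values were seen. Members and lists were chosen with earlier results of these data known. Alternatives covered probe sets or genes, filtering, variance model, normalization, array weights, covariates, a replicate block, rounding noise and each array left out.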

Additional observations from a re-analysis of the deposited data

Results flagged for a closer look

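Among 36 groups of 5 arrays (18 member probe sets, mutant and control), 1 array stood far from the rest of its group by Dixon's test. It was mutant replicate 3 on the dim Vcan probe set 1447586_at, at 4.2, where the other mutants read 3.8 or 3.9; chance alone marks about 1 in 20 such groups. The mean of that probe set was not above the low-signal guide.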

How the results depend on the processing

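Of 414 values of named probe sets under the alternatives, 397 kept their side of the threshold without a counted sign change and 4 changed sign. The 397 include 19 values of Cd44 1452483_a_at, whose main difference of 0 had no direction to keep. Those 19 ran from -0.14 to 0.25. The sign changes were Has1 with the Y-linked gene Eif2s3y as covariate (-0.059), Has1 in the range without single arrays (-0.04 to 0.11), and, with the muscle mean as covariate, Vcan 1427256_at (0.017) and 1447887_x_at (0.10). Array weights called 1 member, 1 of them higher (1447586_at of Vcan, 0.29, adjusted p = 0.0410), and leaving out single arrays called 0 to 1. Other pathway genes called were 5 (3 lower) with 1 row per gene at its brightest, with the brighter 60% of probe sets and with median centring. They were 7 (5 lower) with the mean of a gene's probe sets and with array weights, 0 (0 higher, 0 lower) with the muscle covariate, where Adamts5 (0.89), Adamts1 (0.60) and Hmmr (-0.54) kept their size, and 2 to 6 without single arrays (1 to 2 higher, 1 to 4 lower). Over all probe sets, calls went from 1467 (484 higher, 983 lower) to 2899 (1131, 1768) with array weights, 911 (318, 593) with Eif2s3y, 1 (0, 1) with the muscle covariate, and 464 to 2010 (125 to 769, 339 to 1241) without single arrays; the cause was not tested. The replicate block gave 98 calls (34 higher, 64 lower), 1 other pathway gene (1 higher, 0 lower), with Adamts1 (adjusted p = 0.0808) and Hmmr (0.0901) no longer called, and no member. Same-numbered arrays did not deviate together (correlations -0.06 to 0.08), so they were not treated as pairs. Median centring was not run for probe set pairs, since it cancels within an array. Signal over background limits the 5 dim member probe sets.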
